A study of Mus musculus with 66 samples.

Results

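The 10 genes described here mark the endothelium of brain vessels and the barrier it forms: Cldn5, Cdh5 and Pecam1 at the junctions between endothelial cells, Flt1, Tek and Tie1 as receptors, Slco1a4 and Abcb1a as transporters, and Ly6c1 and Itm2a as further surface and membrane genes enriched in brain endothelium. They were chosen by symbol, each symbol matched exactly 1 gene of the table, and they are 10 of the 24138 genes listed. Expression was measured by RNA sequencing in punches of the ventral striatum (NAcc) as FPKM, a level that corrects the fragment number of a gene for its length and for library size, in 66 libraries of 22 groups with 3 libraries each. The study asked how an acute injection of cocaine at ZT3 (zeitgeber time, hours after lights on) changes the daily course of striatal gene expression, and whether this depends on the dopamine receptor D2R in medium spiny neurons of the indirect pathway.

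Both genotypes were male mice, 3 to 5 months old, kept under alternating light and dark of equal length. Their background is given as C57BL/6 in the labels and as C57BL/6J by the study. iMSN-D2RKO mice carry D2R flox/flox alleles and a Cre transgene driven by the D1R promoter, which removes D2R from indirect-pathway medium spiny neurons through their precursors. WT mice are the comparison group. The study describes the loss of D2R from spiny neurons, and whether the Cre acts in vessel cells was not tested here. In each genotype 3 mice were taken at ZT3, the time of the injection, and others received saline or cocaine (20 mg/kg, intraperitoneally) at ZT3 and were taken at ZT7, ZT11, ZT15, ZT19 or ZT23. The 6 ZT3 libraries serve both the saline and the cocaine series. The labels give no animal numbers, so p-values measure the spread between these libraries. Drd2, the targeted gene, ran at a similar level in both genotypes (log2 difference of -0.02 under saline and -0.25 under cocaine, neither past the threshold), and since its gene value also counts exons outside the deleted stretch it does not check the genotype labels.

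Brain capillaries are lined by endothelial cells that are sealed to each other by tight junctions, of which claudin-5, the product of Cldn5, is the main claudin. Under the tight junctions lie adherens junctions built on VE-cadherin. Such cells hold few transport vesicles and carry transporters that move nutrients into the brain and pump foreign compounds back into the blood. Signals through VEGF receptors, through the angiopoietin receptors and through Wnt from the surrounding tissue maintain this state, and clock genes run in these cells as in most others.

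The base composition of the members is given first because the libraries differed along an axis that followed it. The first 120 bases of the coding sequence of the members with the highest and the lowest share of G and C over their whole coding sequence are shown, from the GENCODE vM21 annotation of GRCm38, 5′ to 3′, with each G and C in capitals.
Cldn5: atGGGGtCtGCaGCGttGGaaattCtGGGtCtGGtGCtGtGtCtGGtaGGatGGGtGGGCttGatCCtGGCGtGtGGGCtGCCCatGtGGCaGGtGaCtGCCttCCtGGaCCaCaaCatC
Tie1: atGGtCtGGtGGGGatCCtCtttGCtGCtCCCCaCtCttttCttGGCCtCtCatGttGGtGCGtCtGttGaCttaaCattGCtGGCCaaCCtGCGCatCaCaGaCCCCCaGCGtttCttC
Abcb1a: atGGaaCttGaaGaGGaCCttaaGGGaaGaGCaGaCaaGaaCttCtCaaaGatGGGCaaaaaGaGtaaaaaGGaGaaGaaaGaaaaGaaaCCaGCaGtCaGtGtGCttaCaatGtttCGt
Slco1a4: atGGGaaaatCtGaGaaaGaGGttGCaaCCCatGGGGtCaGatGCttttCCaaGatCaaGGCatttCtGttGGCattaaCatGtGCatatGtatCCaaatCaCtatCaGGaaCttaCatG
G and C make up 71 of these 120 bases in Cldn5 and 65 in Tie1, against 48 in Abcb1a and 49 in Slco1a4. Over the whole coding sequence the share was 64.1% in Cldn5, 58.3% in Tie1, 47.5% in Abcb1a and 42.4% in Slco1a4, and in the other 6 members it ran from 47.5% in Itm2a to 53.3% in Cdh5.

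On the same annotation Cldn5 lies at chr16:18776847-18778262 on the plus strand and has a single exon. Tie1 (chr4:118471191-118490061, minus strand, 23 exons) and Tek (chr4:94739289-94874976, plus strand, 23 exons) share a chromosome, as do Flt1 (chr5:147561604-147726011, minus strand, 30 exons) and Abcb1a (chr5:8660077-8748575, plus strand, 28 exons). Cdh5 is at chr8:104101625-104144511 (plus strand, 12 exons), Pecam1 at chr11:106654217-106750628 (minus strand, 16 exons), Slco1a4 at chr6:141805440-141856199 (minus strand, 17 exons), Ly6c1 at chr15:75044018-75048830 (minus strand, 6 exons) and Itm2a at chrX:107397099-107403376 (minus strand, 6 exons). For 2 members the level of a close paralog, with which the counting could split fragments, was checked. Close paralogs of other members were not checked in this way. The paralog of Ly6c1, Ly6c2, had a mean of 0.039 FPKM and was listed at 0 in 41 of 66 libraries, and that of Abcb1a, Abcb1b, had a mean of 0.445 FPKM, both far below the member.

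All 10 members were at or above 1 FPKM in all 66 libraries, so transcripts of brain endothelium were detected in every punch. FPKM is a level per length, so genes can be set side by side. Since the libraries also differed along an axis that followed base composition, the order of genes is approximate. The highest mean level over the 66 libraries belonged to Itm2a, which encodes a membrane protein of the BRICHOS family, with 43.3 FPKM (lowest 12.3, highest 67.9). Ly6c1, a surface protein of the Ly6 family, had a mean of 38.4 FPKM (18.6 to 87.2) and Cldn5 one of 38.4 FPKM (16.1 to 84.1). These 3 were not ranked against each other, as the difference in log2 level between neighbours in this order was smaller than its SD over libraries. Only neighbours were compared, so Itm2a was not set against Cldn5. Itm2a was above Ly6c1 in 52 of 66 libraries, and Ly6c1 above Cldn5 in 27 of 66. Slco1a4, an organic anion transporter, followed with 13.4 FPKM, above Flt1, a VEGF receptor, in 63 of 66 libraries (9.57 FPKM). Abcb1a, the efflux pump P-glycoprotein, had 7.23 FPKM and Pecam1, the adhesion molecule CD31, 6.21 FPKM, a step within the SD. The lowest levels were those of Cdh5 (VE-cadherin, 4.16 FPKM), Tie1, the co-receptor of the angiopoietin system (3.73 FPKM), and Tek, the angiopoietin receptor Tie2 (3.61 FPKM), which by the same rule were not ranked among themselves. The steps from Cldn5 to Slco1a4, from Slco1a4 to Flt1, from Flt1 to Abcb1a and from Pecam1 to Cdh5 were larger than their SD.

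**Figure D1:**
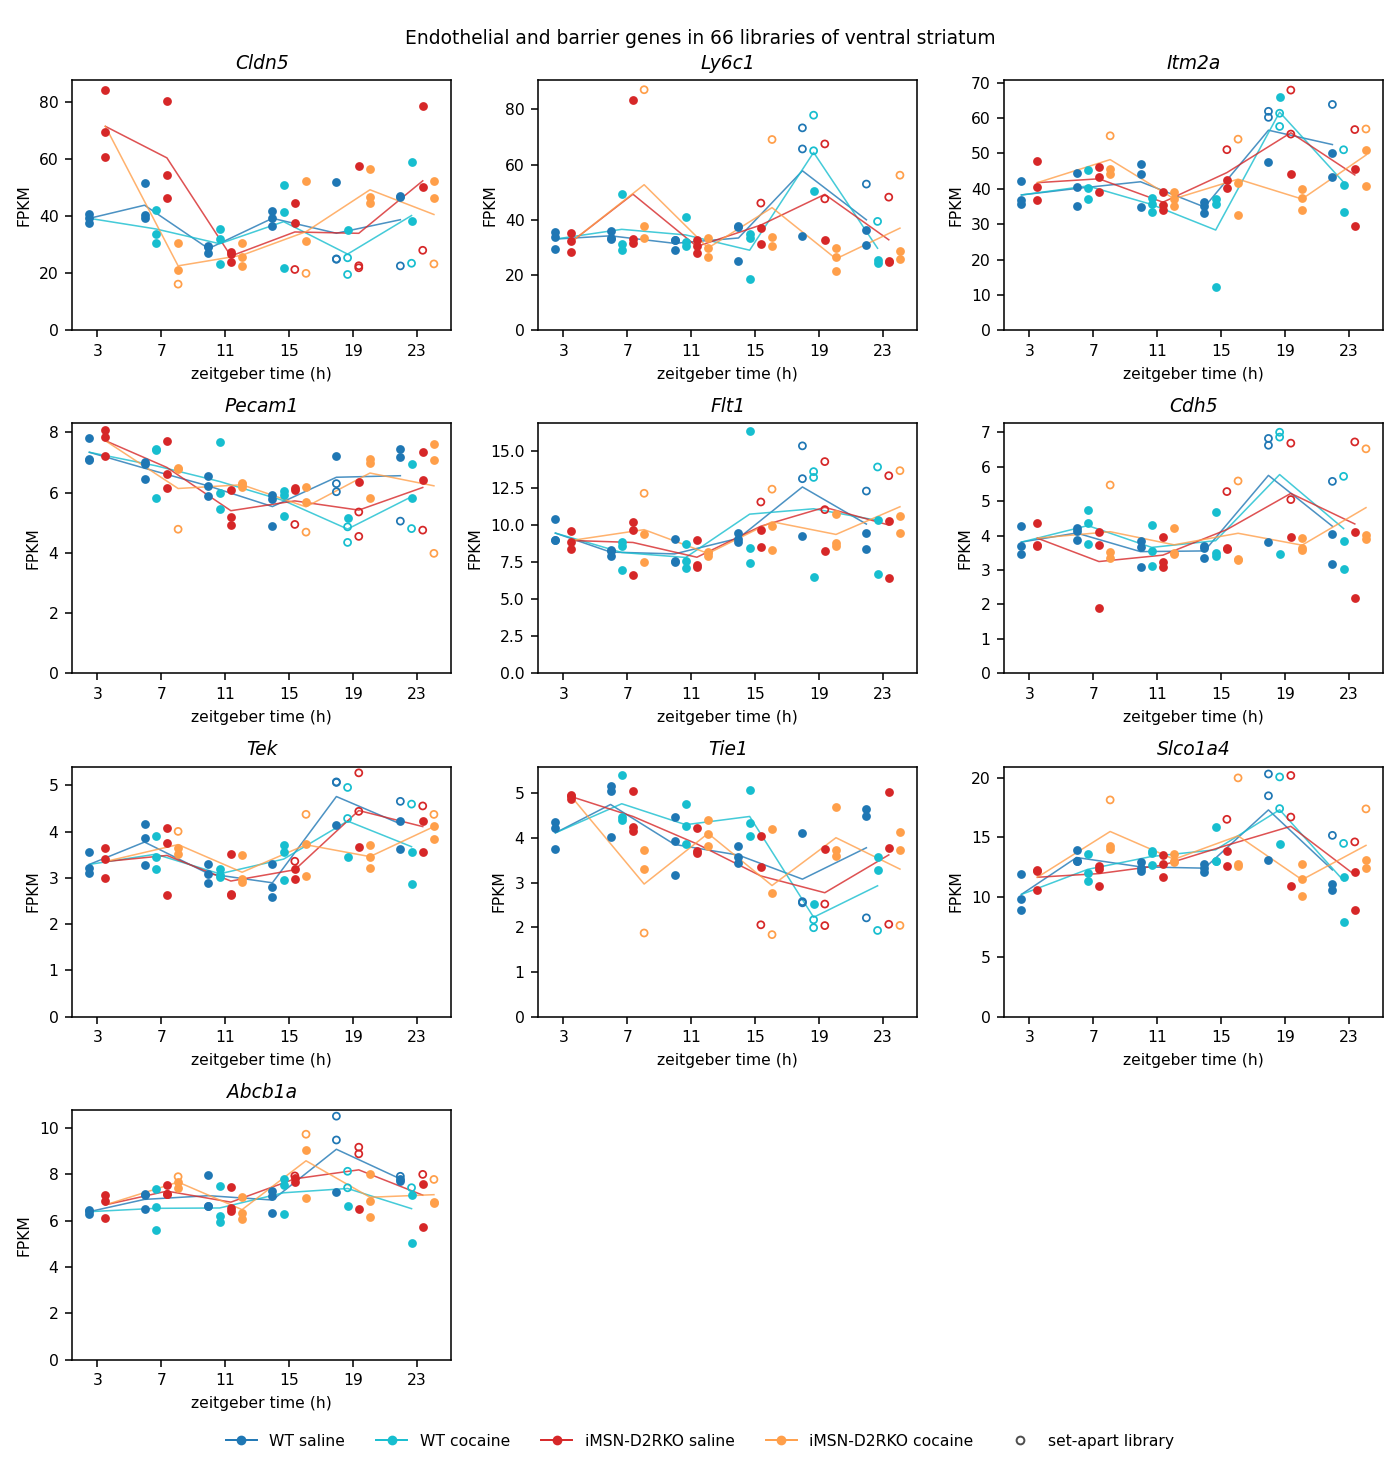
FPKM of the 10 members (1 panel each) against the time of harvest in ZT hours, with 1 point per library, lines through the group means and colours for genotype and treatment; the ZT3 libraries are drawn once and open points are the 13 libraries set apart on the library score. Cldn5 has a wide spread, from 16.1 to 84.1 FPKM, and the open points lie low in Cldn5 and Tie1 and high in Ly6c1 and Slco1a4.

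Within groups the libraries differed along 1 strong axis, and this has to be known before any comparison of the members is read. The first axis of the deviations of log2(FPKM + 1) from the group means, over 9584 genes with a mean above 5 FPKM (7 of the 10 members among them), held 43.6% of the variance within groups. On the score along it, 13 libraries lay between 44.3 and 56.1 and the other 53 between -35.9 and 15.1. The 13 were 2 of the 3 libraries of WT saline, WT cocaine and iMSN-D2RKO saline at ZT19, 1 library in each of the 4 groups at ZT23, 1 each in iMSN-D2RKO saline and cocaine at ZT15, and 1 in iMSN-D2RKO cocaine at ZT7. No ZT3 or ZT11 library was among them. Over 8882 of these genes, for which the annotation gave a coding sequence, the correlation of a gene with the score fell with its coding share of G and C (Pearson r across genes of -0.55). Among the 2221 genes with a coding share of G and C up to 48.6% the median correlation with the score was 0.77, and among the 2220 genes with a share from 57.6% it was -0.57. It rose with the log2 of transcript length (r across genes of 0.46). Relative depth, which could be estimated only roughly, was 0.656 to 0.754 of the median in the 13 libraries. In the other 53 it ran from 0.554 to 1.71. The lowest values were those of the third replicate of WT cocaine at ZT15 (0.554) and the first replicate of iMSN-D2RKO saline at ZT7 (0.590). Genes are not independent replicates, and what set these libraries apart, with the part of depth in it, was not tested.

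The members split along this axis. Cldn5 (r with the score of -0.93 over 66 libraries), Tie1 (-0.87) and Pecam1 (-0.71) were low in libraries with a high score, whereas Cdh5 (0.88), Slco1a4 (0.86), Flt1 (0.83), Tek (0.69), Abcb1a (0.65), Ly6c1 (0.64) and Itm2a (0.45) were high in them. Among the members the order of base composition was not kept throughout, since Cdh5 with 53.3% G and C was high in such libraries and Pecam1 with 50.4% was low. Of the 9584 genes, 5.07% had a lower correlation with the score than Cldn5. In the 13 libraries the mean of Cldn5 was 22.6 FPKM against 42.3 FPKM in the other 53, and that of Pecam1 4.96 against 6.52 FPKM. Ly6c1 had 61.2 against 32.8 FPKM, Itm2a 58.0 against 39.7 FPKM and Flt1 13.1 against 8.72 FPKM. Genes of a single cell type thus moved in opposite directions between libraries of a group.

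**Figure D2:**
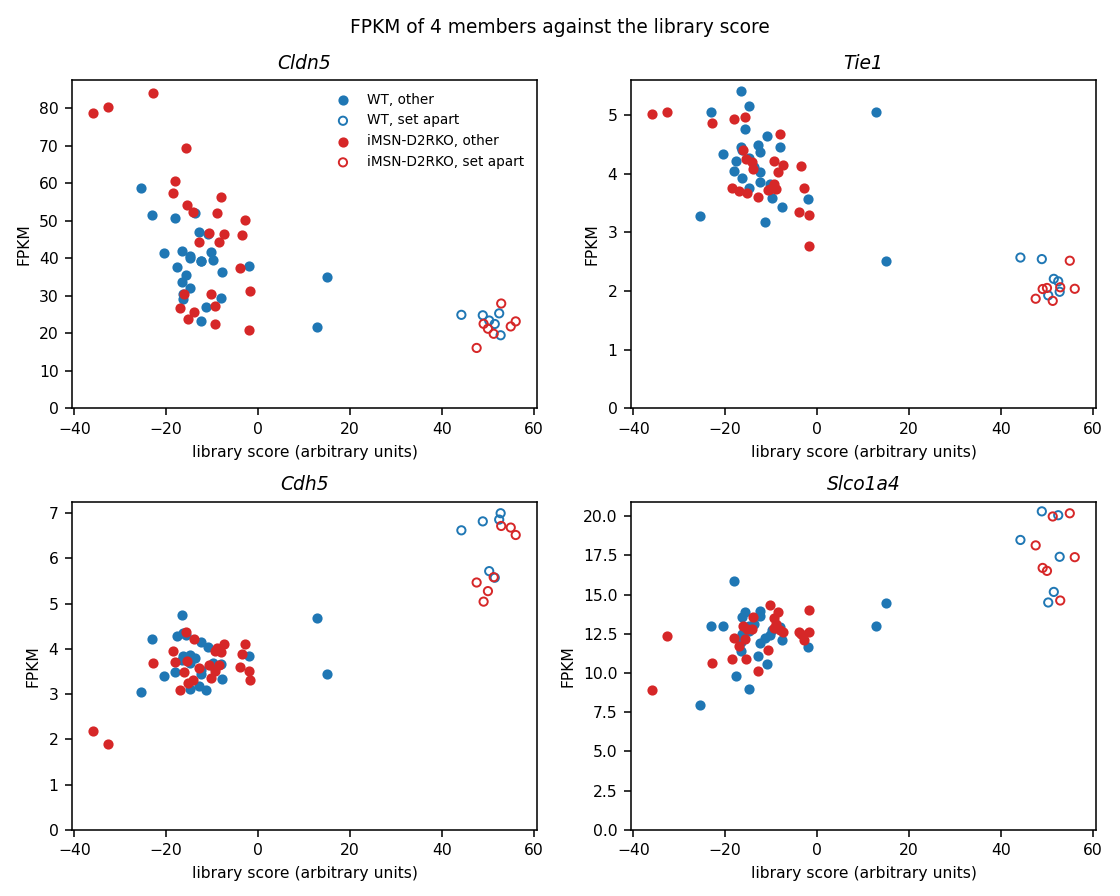
FPKM of Cldn5, Tie1, Cdh5 and Slco1a4 in each of the 66 libraries against the library score (no unit), with WT in blue and iMSN-D2RKO in red and the 13 set-apart libraries as open points. Cldn5 and Tie1 lie lower and Cdh5 and Slco1a4 higher in libraries of a higher score, with correlations of -0.93, -0.87, 0.88 and 0.86.

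The members did not vary as a block. Over the 66 libraries, the correlation of deviations from the group means had a median of 0.31 over the 45 pairs of members and ran from -0.81 to 0.90. All 24 pairs of members on the same side of the score correlated positively (median r of 0.66), and all 21 pairs on opposite sides correlated negatively (median r of -0.55). Among the 53 other libraries 7 of those 21 pairs were negative and their median was 0.16, and with the score removed from every gene 4 of 21 were negative and the median was 0.31. Of the 24 pairs on the same side, 18 were positive among the 53 other libraries (median r of 0.31) and 17 with the score removed (median r of 0.22). The points of these correlations share the libraries and their composition, and the values are a description. The genes outside the list that followed the mean of the members most closely were Ugt8a (r of 0.78), Scrn3 (0.77), Trim59 (0.77), Gabra4, Ahcyl1, Dennd5a, Wwp1, Adgrl4 (0.76), Ankrd40 and Ermp1 (0.74), with correlations with the score itself from 0.73 to 0.92. Of these, Adgrl4 is an endothelial receptor, while Gabra4 encodes a neuronal GABA receptor subunit and Ugt8a an enzyme of myelin lipid synthesis. Member by member, the gene with the highest correlation, named after its value was seen, was Mrpl52 for Cldn5 (r of 0.95), Dpp3 for Tie1 (0.94), Asb13 for Pecam1 (0.84), Frs2 for Cdh5 (0.94), Wnk1 for Flt1 (0.95), Utrn for Tek (0.82), Gspt1 for Slco1a4 (0.91), Ahcyl1 for Abcb1a (0.81), Itm2b for Ly6c1 (0.92) and Tmx1 for Itm2a (0.89).

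**Figure D3:**
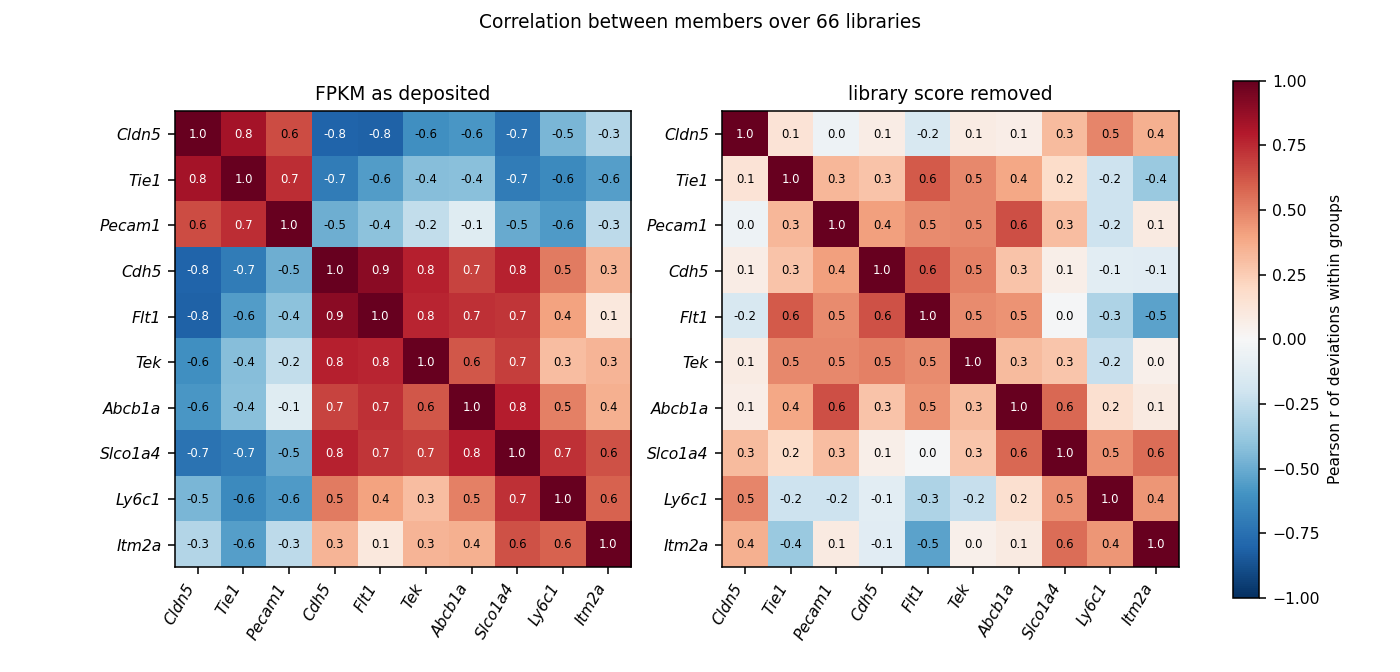
Heat maps of Pearson r between the 10 members for deviations of log2(FPKM + 1) from the group means over 66 libraries, as deposited on the one side and with the library score removed on the other. As deposited, Cldn5, Tie1 and Pecam1 form a block that is negative against the other 7 members in all 21 pairs, and with the score removed 4 of these 21 pairs are negative.

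In addition, single libraries stood out in members or in markers of other cells. The first replicate of iMSN-D2RKO saline at ZT7 had the largest total of the table (690048 FPKM, against a median of 396432 FPKM), the highest sum of the 10 members (252 FPKM, median 166 FPKM) and the highest sums of the pericyte (135 FPKM, most abundant gene Vtn), smooth muscle (57.5 FPKM, Myl9), perivascular fibroblast and meningeal (943 FPKM, Ptgds), blood (59.0 FPKM, Hbb-b2) and spiny neuron (15629 FPKM, Penk) markers, and also of the microglia markers and of the adhesion, VEGF and caveolae lists. In it Ly6c1 stood at 83.4 FPKM and Cdh5 at its lowest value of 1.89 FPKM. The third replicate of WT cocaine at ZT15 had the lowest Itm2a (12.3 FPKM) and the lowest Ly6c1 (18.6 FPKM) of all libraries and the highest Flt1 (16.3 FPKM). The first replicate of iMSN-D2RKO saline at ZT11 held 1104 FPKM of Ttr, a gene of the choroid plexus, which was listed at 0 in 18 libraries. The second replicate of iMSN-D2RKO saline at ZT23 had the lowest score (-35.9) and the lowest Flt1 (6.41 FPKM) of all libraries. Its total was 465297 FPKM and its Cldn5 78.6 FPKM. The part of these other cells in the members' values was not tested, and the called genes of single contrasts that hold 1 of the first 2 libraries are also given without it.

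No member passed the test of a difference in level between cocaine and saline across the day. From ZT7 to ZT23, Cldn5 lay between 22.5 and 52.0 FPKM (median 39.4) in the 15 WT saline libraries and between 19.5 and 58.9 FPKM (median 33.8) in the 15 WT cocaine libraries, and in iMSN-D2RKO mice between 21.2 and 80.3 FPKM (median 37.5) under saline and between 16.1 and 56.4 FPKM (median 30.6) under cocaine. These ranges overlap for most of their width. The log2 difference of Cldn5 between cocaine and saline, with time point as a factor, was -0.12 in WT (95% interval -0.41 to 0.16) and -0.22 in iMSN-D2RKO mice (-0.65 to 0.21). None of the 10 members passed an adjusted p of 0.05 (limma, Benjamini-Hochberg over all genes), against a background of 0.0% in both genotypes (0 of 14392 and 0 of 14238 genes, with 365 and 425 at an unadjusted p under 0.05). The members' median log2 difference was -0.05 in WT, with 8 of 10 lower under cocaine, and -0.001 in iMSN-D2RKO mice, with 5 of 10 lower. In a bulk punch, fewer endothelial cells and less RNA per endothelial cell cannot be told apart, here and below.

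No member passed the test of a difference in level between the genotypes either. Under saline, 27 of 14287 genes (0.189%) passed the test and no member did, with Cldn5 at +0.20 in iMSN-D2RKO mice (95% interval -0.10 to 0.50). Under cocaine 7 of 14382 genes (0.0487%) passed, again without a member. Among the genes that did was Penk, the enkephalin precursor of indirect-pathway neurons, which was higher in iMSN-D2RKO mice by 0.76 (SE 0.152, limma adjusted p = 0.0165) under saline and 0.69 (SE 0.128, adjusted p = 0.0224) under cocaine on the log2 scale. Without the saline library of the largest total the value of Penk under saline was 0.64 (limma adjusted p = 0.000189, 0.176% of genes called), and without the third replicate of WT cocaine at ZT15 it was 0.63 under cocaine (adjusted p = 0.0247, 0.0423% of genes called). The difference of the cocaine effect between the genotypes passed the test for 0 of 14622 genes (limma; 245 at an unadjusted p under 0.05). Without the 13 set-apart libraries no member passed any of these level tests, with 0.00704% of all genes called between treatments in WT and 0.334% and 0.0987% between genotypes under saline and cocaine.

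At ZT3, before any effect of the injection, Cldn5 was the member that differed most between the genotypes. It stood at 39.3, 40.6 and 37.6 FPKM in the 3 WT libraries and at 60.5, 69.5 and 84.1 FPKM in the 3 iMSN-D2RKO libraries. The groups did not overlap, and the lowest iMSN-D2RKO library was above every WT library of the whole series (highest 58.9 FPKM). Tie1 had the same order with a smaller step, with 4.37, 3.76 and 4.22 FPKM in WT and 4.94, 4.97 and 4.86 FPKM in iMSN-D2RKO mice. These 2 of 10 members were the ones higher without overlap, against 7.62% of all genes, and no member was lower without overlap (6.52% of all genes). The log2 difference was 0.84 for Cldn5 (SE 0.364, 95% interval 0.10 to 1.57), with an unadjusted limma p of 0.026 and an adjusted p of 1. It was 0.21 for Tie1 (95% interval -0.23 to 0.66). In this contrast 0.041% of genes passed, and the median over the members was 0.06, beside 0.01 over all genes. None of the 6 libraries was set apart on the score. With the score as a covariate the difference of Cldn5 was 0.77 (SE 0.140, limma adjusted p = 0.00395) and 0.116% of genes passed. Cldn5 is among the genes of the score, so this fit is no separate support. Without the set-apart libraries the difference of Cldn5 was 0.84 (adjusted p = 0.276).

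The summed level of the 10 members at ZT3 was 155 ± 2.69 FPKM in WT and 192 ± 8.44 FPKM in iMSN-D2RKO mice (SD, n = 3 each), and Cldn5 accounts for most of this step. Of the other junction genes, 0 of 12 measured of the tight and adherens junction list passed, with a median difference of 0.04 (4 of 12 lower). Lsr, which encodes the angulin of tricellular tight junctions, stood at 3.54, 4.02 and 4.42 FPKM in WT and 3.92, 4.90 and 6.10 FPKM in iMSN-D2RKO mice (log2 difference 0.25, 95% interval -0.05 to 0.55), and the groups overlap.

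At ZT7, 4 h after the injection, the widest gap between cocaine and saline among the members was that of Cldn5 in iMSN-D2RKO mice. It had 80.3, 54.2 and 46.4 FPKM in the 3 iMSN-D2RKO saline libraries and 21.0, 16.1 and 30.5 FPKM in the 3 iMSN-D2RKO cocaine libraries. In WT mice it had 39.4, 51.6 and 40.2 FPKM under saline and 33.8, 42.1 and 30.4 FPKM under cocaine. The iMSN-D2RKO groups did not overlap and the WT groups did. The log2 difference between cocaine and saline was -1.39 in iMSN-D2RKO mice (SE 0.364, 95% interval -2.12 to -0.66), with an unadjusted limma p of 0.000396 and an adjusted p of 0.0934, so it missed the threshold that 0.0137% of genes passed. In WT it was -0.30 (95% interval -1.03 to 0.43). The difference between these effects was -1.09 (95% interval -2.13 to -0.06, unadjusted p = 0.0394, limma adjusted p = 0.658) and is not shown over all genes.

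The side of the threshold on which this value fell depended on single libraries and on the score. The iMSN-D2RKO cocaine group holds 1 set-apart library, the one with 16.1 FPKM, and the saline group holds the library with the largest total, the one with 80.3 FPKM. With the score as a covariate the log2 difference of Cldn5 was -0.86 (SE 0.144, 95% interval -1.15 to -0.57) with a limma adjusted p of 0.00322, in a fit in which 0.13% of genes passed. Here too Cldn5 is among the genes of the covariate. Without the set-apart libraries the difference of Cldn5 was -1.18 (adjusted p = 0.144), and without the saline library of the largest total -1.17 (adjusted p = 0.787). Without the third replicate of every group it was -1.79 and passed (limma adjusted p = 0.0445), in a fit in which 9.11% of all genes did. Without replicate 1 no gene passed (0%), and without replicate 2 0.00687% of all genes did. Over the fits with a replicate or library left out the difference ran from -1.79 to -1.14. Its sign was negative in each of these fits.

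Tie1 at ZT7 in iMSN-D2RKO mice had 5.05, 4.25 and 4.14 FPKM under saline and 3.29, 1.87 and 3.74 FPKM under cocaine (log2 difference -0.49, SE 0.219, limma adjusted p = 0.18). Slco1a4 had 12.3, 10.9 and 12.6 FPKM under saline and 14.03, 18.1 and 14.3 FPKM under cocaine (log2 difference 0.34, SE 0.181, adjusted p = 0.242). Cldn5 and Tie1 were the 2 of 10 members lower without overlap, against 7.18% of all genes, and Slco1a4 was the 1 higher without overlap, against 7.93%. The other 7 members had log2 differences between -0.14 (Pecam1) and 0.29 (Cdh5), none past the threshold. The mean library score was -18.6 in the saline group and 11.9 in the cocaine group, and the signs of these 3 members are those of their correlations with the score.

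Of the lists of other vascular genes, the tight and adherens junction list was the 1 that held a called gene in this contrast. Lsr had 8.68, 5.29 and 4.98 FPKM under saline and 2.54, 3.17 and 3.37 FPKM under cocaine in iMSN-D2RKO mice, against 3.41, 3.24 and 3.56 FPKM in WT saline libraries. It fell by 0.83 on the log2 scale between iMSN-D2RKO saline and cocaine libraries (SE 0.15, limma adjusted p = 0.00881), as 1 of 12 genes of its list, and was higher by 0.70 in iMSN-D2RKO than in WT saline libraries (SE 0.15, adjusted p = 0.0144). These contrasts share the iMSN-D2RKO saline libraries. Without the library of the largest total the values were -0.61 (limma adjusted p = 0.286) and 0.48 (adjusted p = 0.625). The call of Lsr between cocaine and saline was also lost without the set-apart libraries (0% of all genes called). It was lost without replicate 1 (0%) or replicate 2 (0.00687%) of every group too, and kept without replicate 3 (9.11%) and with the score as a covariate (0.13%). The median of the list was 0.27, opposite in sign to Lsr, and 3 of its 12 genes were lower. No gene passed in the lists of endothelial adhesion and surface genes (0 of 14), VEGF, angiopoietin and BMP signalling (0 of 15), Wnt and endothelial transcription factors (0 of 22), barrier transporters (0 of 23), caveolae and leakiness (0 of 5) or arterial and venous genes (0 of 11). Nor did 1 pass in the markers of pericytes (0 of 11), smooth muscle (0 of 5), meninges (0 of 7), choroid plexus (0 of 7), blood (0 of 4), astrocytes (0 of 8), microglia (0 of 8), oligodendrocytes (0 of 7), spiny neurons (0 of 10) or neurons (0 of 5).

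Between the genotypes under saline at ZT7, 3.07% of genes passed and no member did. Cldn5 was at 0.43 (95% interval -0.31 to 1.16, limma adjusted p = 0.534) and reached an adjusted p of 0.0414 with the score as a covariate, at 0.40, where 19.4% of all genes passed. Without the library of the largest total it was at 0.20 (adjusted p = 1), and 0.0686% of all genes passed. Slco1a4 was the 1 member lower without overlap in iMSN-D2RKO mice (7.23% of all genes), and none was higher without overlap (11.9%). Markers of other cells differed in the same contrast: Penk by 1.71 (adjusted p = 0.00493), Rgs9, a spiny neuron gene, by 0.94 (adjusted p = 0.0481) and Hbb-b2, a globin gene of red cells, by 1.31 (adjusted p = 0.0498), all higher in iMSN-D2RKO mice. Without the library of the largest total none of these 3 passed by limma, with Penk at 1.02 (adjusted p = 0.217), Rgs9 at 0.51 (adjusted p = 1) and Hbb-b2 at 0.92 (adjusted p = 0.984). The sum of the blood markers was 13.8 ± 2.20 FPKM in WT and 37.5 ± 18.6 FPKM in iMSN-D2RKO mice (SD, n = 3 each), with the highest value in the library of the largest total. The part of blood and vessel content in the values of Cldn5 and Lsr was not tested.

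**Figure D4:**
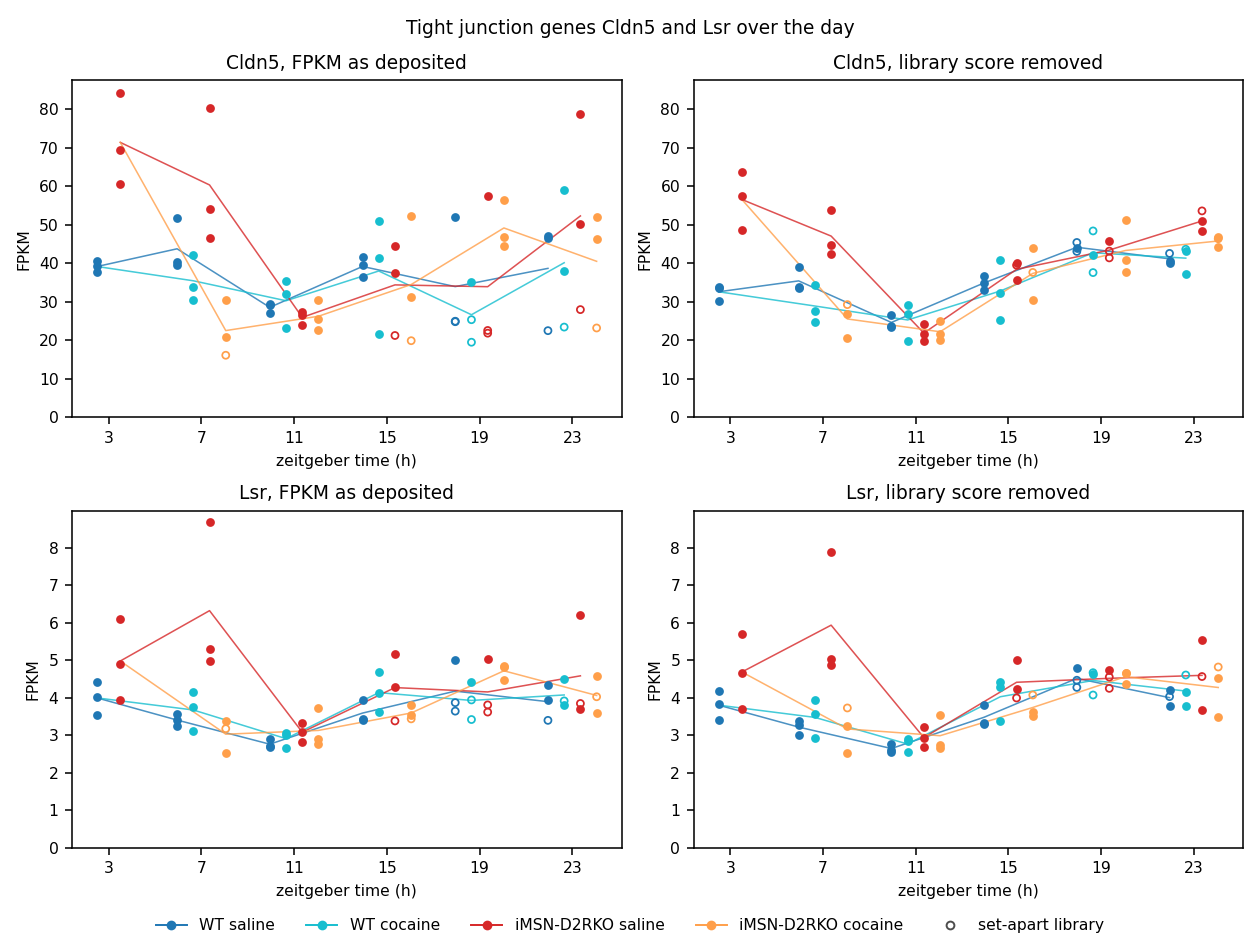
Cldn5 and Lsr in FPKM against the time of harvest in ZT hours, as deposited and with the library score removed, with 1 point per library and lines through the group means. In iMSN-D2RKO mice Cldn5 stands at 60.5 to 84.1 FPKM at ZT3 and at 16.1 to 30.5 FPKM at ZT7 after cocaine, and with the score removed all 4 series of Cldn5 have their lowest group mean at ZT11.

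At ZT19 under cocaine the genotypes differed in 3 members, Ly6c1, Itm2a and Slco1a4, all lower in iMSN-D2RKO mice. Ly6c1 had 77.9, 50.3 and 65.03 FPKM in WT and 21.3, 26.5 and 29.8 FPKM in iMSN-D2RKO mice. Itm2a had 57.7, 66.04 and 61.4 FPKM in WT and 34.1, 39.8 and 37.4 FPKM in iMSN-D2RKO mice. Slco1a4 had 17.4, 14.5 and 20.1 FPKM in WT and 10.1, 11.5 and 12.8 FPKM in iMSN-D2RKO mice. None of these groups overlapped. On the log2 scale Ly6c1 fell by 1.27 (SE 0.337, limma adjusted p = 0.0441), Itm2a by 0.72 (SE 0.225, adjusted p = 0.0448) and Slco1a4 by 0.55 (SE 0.181, adjusted p = 0.0466). These 3 of 10 stand against 11.9% of all genes that passed in this contrast, 7.96% of them in this direction, and the median of the members was -0.19, beside -0.05 over all genes.

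The members on the other side of the score had higher values in iMSN-D2RKO mice at that time, none past the threshold. Cldn5 had 19.5, 35.1 and 25.3 FPKM in WT and 44.4, 46.7 and 56.4 FPKM in iMSN-D2RKO mice (log2 difference 0.89, limma adjusted p = 0.076). Tie1 had 1.99, 2.51 and 2.17 FPKM in WT and 3.60, 3.73 and 4.68 FPKM in iMSN-D2RKO mice (0.63, with an adjusted p just over the threshold). Pecam1 had 4.35, 5.16 and 4.86 FPKM in WT and 5.83, 7.13 and 6.98 FPKM in iMSN-D2RKO mice (0.40, adjusted p = 0.0643). So 3 members were higher without overlap, against 18.2% of all genes, and 3 were lower without overlap, against 26.7% of all genes.

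This contrast set groups of unlike score against each other. Of the WT cocaine libraries at ZT19, 2 were set apart and the mean score was 40.1, whereas no iMSN-D2RKO cocaine library was and the mean score was -10.6. With the score as a covariate no member passed, Ly6c1 standing at -0.72 (limma adjusted p = 0.335), Itm2a at -0.46 (adjusted p = 0.358) and Slco1a4 at -0.16 (adjusted p = 0.447), in a fit in which 0.0273% of genes passed. Without the set-apart libraries the WT group was 1 library, assumed to vary like the other groups. Then Ly6c1 was lower by 0.95 (adjusted p = 0.0383), Tie1 was higher by 0.50 (adjusted p = 0.0267), Itm2a and Slco1a4 did not pass (adjusted p = 0.0503 and 0.141), and 20.4% of all genes passed. When replicate 1, 2 or 3 was left out of every group no gene of the table passed by limma (0.0% each, with 2893, 5135 and 3663 genes at an unadjusted p under 0.05), and so no member.

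**Figure D5:**
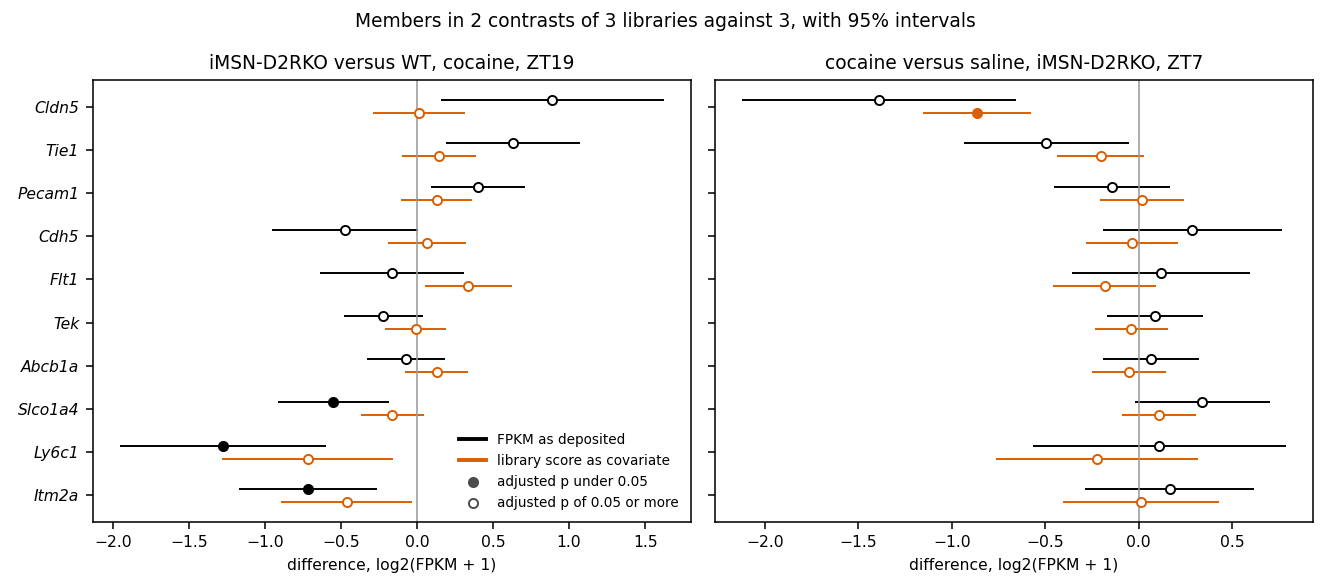
Log2 differences of the 10 members with 95% intervals for iMSN-D2RKO against WT under cocaine at ZT19 and for cocaine against saline in iMSN-D2RKO mice at ZT7, as deposited in black and with the library score as a covariate in orange. Filled points have an adjusted p under 0.05. At ZT19 the called values of Ly6c1, Itm2a and Slco1a4 (-1.27, -0.72 and -0.55) are not called with the covariate, and at ZT7 Cldn5 is called with it (-0.86).

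Beyond the members, the vascular lists at ZT19 under cocaine held 12 called genes of both directions, in a contrast in which 11.9% of all genes passed. Of the adhesion and surface genes, 4 of 14 passed, all lower in iMSN-D2RKO mice, among them Emcn (endomucin, -0.91), Vcam1 (-0.48) and Clec14a (-0.31), while the list's median was 0.16, so list and called genes differ in sign. Of VEGF, angiopoietin and BMP signalling 4 of 15 passed, 3 higher and 1 lower, with Bmp6 at 0.85, Nos3 (the endothelial nitric oxide synthase) at 0.62 and S1pr1 at -0.55. Both called genes of caveolae and leakiness (2 of 5), Sdpr at -0.78 and Plvap at -0.89, were lower, and of the barrier transporters 2 of 23 passed, the cationic amino acid transporter Slc7a1 at 1.16 and the efflux pump Abcg2 at -0.41. None passed among the junction genes (0 of 12), the Wnt genes and transcription factors (0 of 22) or the arterial and venous genes (0 of 11). Markers of other cells moved in the same contrast, with 2 of 11 pericyte genes (Higd1b 1.06, Ndufa4l2 -0.85), Acta2 of smooth muscle (1 of 5, -0.59), Dcn of fibroblasts (1 of 7, -0.84), Slc1a3 of astrocytes (1 of 8, -0.87), P2ry12 of microglia (1 of 8, -1.41) and Drd1 of spiny neurons (1 of 10, 0.74). None passed among choroid plexus (0 of 7), blood (0 of 4), oligodendrocyte (0 of 7) and neuron markers (0 of 5). With the score as a covariate, where 0.0273% of all genes passed, none of the 12 vascular genes and none of the 7 markers remained called by limma. Without the set-apart libraries 9 of the 12 and 5 of the 7 did, and with replicate 1, 2 or 3 left out of every group none did, like all other genes.

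In the other single time points no member passed. Cocaine against saline gave 0 calls in 10 contrasts of 10 members, with 0.00683% of all genes called in WT at ZT7 and again at ZT15, 0.0205% at ZT19 and 0.0% at ZT11 and ZT23, and in iMSN-D2RKO mice 0.0% at each time but ZT7, and iMSN-D2RKO against WT gave none in the contrasts other than ZT19 under cocaine. In these, beside ZT3, ZT7 under saline and ZT15 under cocaine, 0.0205% of all genes passed by limma under saline at ZT19, 0.0137% under cocaine at ZT23 and 0.0% in the others. Under cocaine at ZT15, where 4.4% of genes passed, Itm2a was higher in iMSN-D2RKO mice by 0.69 (limma adjusted p = 0.0599). Its WT group included the library with 12.3 FPKM, beside 37.1 and 35.6 FPKM in the others, while iMSN-D2RKO cocaine libraries had 41.7, 32.5 and 54.05 FPKM. Without that library the difference of Itm2a was 0.20 (adjusted p = 0.627), and without the library of the largest total, which is in neither group of this contrast, it was unchanged at 0.69 and passed (adjusted p = 0.0461), as did 8.28% of all genes. In the same contrast called genes of the vascular lists were lower in iMSN-D2RKO mice: Eng (1 of 14, -0.49), a co-receptor for BMP ligands, Apcdd1 and Foxf2 (2 of 22, -0.61 and -0.58), of which Foxf2 is a transcription factor of brain pericytes, and Slc22a8 and Slc38a3 (2 of 23, -0.62 and -0.60), which are solute transporters. Called markers of other cells went both ways. Pdgfrb, the pericyte receptor, was lower (1 of 11, -0.52), while Clic6 of the choroid plexus was higher by 0.69 (1 of 7) and Penk of spiny neurons by 1.29 (1 of 10). None of these 8 passed by limma without the third replicate of WT cocaine at ZT15, when 0.0138% of all genes did. The values were then -0.37 for Eng (adjusted p = 0.398), -0.68 for Apcdd1 (0.185), -0.55 for Foxf2 (0.368), -0.42 for Slc22a8 (0.354), -0.61 for Slc38a3 (0.354), -0.26 for Pdgfrb (0.401), 0.61 for Clic6 (0.378) and 1.08 for Penk (0.354).

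Over the 6 time points, calls for the members were few and differed between the series. A limma F test over 6 time points called Tek (adjusted p = 0.0266) and Itm2a (adjusted p = 0.0378) in WT saline, where 13.1% of all genes were called, and Tie1 (adjusted p = 0.0059) and Ly6c1 (adjusted p = 0.0299) in WT cocaine, where 24.2% were. In iMSN-D2RKO mice no member was called in either series, against 0.0% of genes under saline (0 of 14135, with 931 at an unadjusted p under 0.05) and 0.00717% under cocaine, a single gene, the amino acid transporter Slc7a5. Tek in WT saline was lowest at ZT15, with 2.58, 2.81 and 3.29 FPKM, and highest at ZT19, with 5.06, 5.07 and 4.13 FPKM. Itm2a had 35.0, 33.3 and 36.3 FPKM at ZT15 and 60.2, 61.9 and 47.6 FPKM at ZT19 in the same series. Tie1 in WT cocaine ran from 4.47, 5.42 and 4.41 FPKM at ZT7 to 1.99, 2.51 and 2.17 FPKM at ZT19. Without replicate 1 or without replicate 2 of every group no member was called by limma, and few genes were (0.0511% and 0.0% of all genes in WT saline, 0.0213% and 0.0071% in WT cocaine). Without replicate 3 Tek remained called in WT saline, with Cdh5 and Flt1 added (14.2% of all genes), and Tie1 and Ly6c1 in WT cocaine, with Itm2a added (20.4%). Without the third replicate of WT cocaine at ZT15 Itm2a was called in WT cocaine as well (adjusted p = 0.00692), where 30.2% of all genes were. In each of these 3 courses 1 end, the highest or the lowest, fell at ZT19, where 2 of the 3 WT libraries of either treatment were set apart, and the direction at ZT19 was that of each gene's correlation with the score.

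With the score taken into account, Cldn5 was called in the time course of some series. The score was computed from these libraries with Cldn5 among its genes, which can by itself narrow the spread of Cldn5. It also differed between times, with a mean of -15.0 in WT at ZT3 and 26.5 in WT saline at ZT19. A fit with the score can thus reshape the daily course, and these calls are no separate support for a rhythm. As deposited the limma adjusted p of Cldn5 over time was 0.412 in WT saline, 0.625 in WT cocaine, 0.6 in iMSN-D2RKO saline and 0.11 in iMSN-D2RKO cocaine. With the score as a covariate it was 0.00164 in WT saline (22% of all genes called), 0.00846 in iMSN-D2RKO saline (0.00707%, Cldn5 being the single gene called by limma) and 0.00632 in iMSN-D2RKO cocaine (9.01%), and it was not called in WT cocaine (0.0561%). Pecam1 (0.0256), Slco1a4 (0.0142) and Tek (0.0276) were called beside it in WT saline. Of the calls as deposited, Itm2a was lost in WT saline with the covariate, and Tie1 and Ly6c1 were both lost in WT cocaine. Without the set-apart libraries Cldn5 was called in WT saline (limma adjusted p = 0.00996, 9.97% of genes) and iMSN-D2RKO cocaine (adjusted p = 0.0153, 11.3% of genes), Pecam1 in WT saline (adjusted p = 0.0421), and no member in iMSN-D2RKO saline (0.0143% of genes) or WT cocaine (11.4%). Tek and Itm2a both lost their call in WT saline in that fit. Score-removed values of Cldn5 in iMSN-D2RKO mice were 48.5, 57.3 and 63.8 FPKM at ZT3, 53.9, 44.8 and 42.4 FPKM at ZT7 under saline, 24.3, 21.5 and 19.7 FPKM at ZT11 and 48.5, 50.8 and 53.6 FPKM at ZT23. In WT saline they were 33.7, 33.9 and 30.3 FPKM at ZT3, 26.6, 23.8 and 23.6 FPKM at ZT11 and 43.1, 45.4 and 44.0 FPKM at ZT19. In both genotypes the 3 saline libraries at ZT11 were the lowest of their series. The same held as deposited for the WT saline means, with 28.5 ± 1.23 FPKM at ZT11 against 33.9 to 43.7 FPKM at the other times, and for iMSN-D2RKO saline, with 25.9 ± 1.85 FPKM at ZT11 (SD, n = 3) against 33.9 to 71.3 FPKM.

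The rhythm test of the study, JTK_CYCLE, was run here with periods of 20 and 24 h, a narrower window than the study's, since 6 time points in steps of 4 h hold no whole cycle of a longer period. It gave 5 calls for members at a corrected p under 0.01, with p from the exact null distribution of its rank statistic. In WT saline it called Flt1 (exact corrected p = 0.00533, peak at ZT21), where 9.58% of all genes were called. In WT cocaine it called Tie1 (exact corrected p = 0.00255, peak at ZT9) and Pecam1 (corrected p = 0.00339, peak at ZT7), with 7.57% of all genes. In iMSN-D2RKO saline it called Cldn5 (exact corrected p = 0.00339, peak at ZT5), with 2.57% of all genes, and in iMSN-D2RKO cocaine Slco1a4 (corrected p = 0.00745, peak at ZT9), with 1.09% of all genes. No member was called in more than 1 series. The series of a genotype share their ZT3 libraries. When a replicate was left out, the exact corrected p by JTK_CYCLE was 0.0156 to 0.208 for Flt1 and 0.0286 to 0.648 for Slco1a4, so neither was called. In these runs 638, 208 and 798 genes were called in WT saline and 59, 66 and 146 in iMSN-D2RKO cocaine. Tie1, Pecam1 and Cldn5 each lost the call in at least 1 such run (up to 0.134, 0.456 and 0.134). Cldn5 alone kept its call both with the score removed and without the set-apart libraries.

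Pecam1 was the 1 member with a corrected p under 0.05 in all 4 series, with exact values by JTK_CYCLE of 0.0106 in WT saline, 0.00339 in WT cocaine, 0.0359 in iMSN-D2RKO saline and 0.0108 in iMSN-D2RKO cocaine and peaks from ZT3 to ZT7, where 23.3%, 19.3%, 11.3% and 4.11% of all genes lay under 0.05. In WT mice it stood at 7.12, 7.08 and 7.82 FPKM at ZT3 and, under saline, at 4.90, 5.92 and 5.79 FPKM at ZT15. Without the set-apart libraries Pecam1 was called in WT saline (exact corrected p = 0.000981), iMSN-D2RKO saline (0.00123) and iMSN-D2RKO cocaine (0.0014), and had 0.0318 in WT cocaine, against 6.27%, 1.22%, 1.91% and 2.35% of all genes, and Cldn5 was called in iMSN-D2RKO saline (exact corrected p = 0.00234). With the score removed from the values Pecam1 was called in none, the lowest corrected p being 0.0269. With the score removed JTK_CYCLE called Cldn5 in all 4 series, with exact corrected p of 0.00255 in WT saline (peak at ZT21) and in WT cocaine (ZT23), 2.19e-05 in iMSN-D2RKO saline (ZT3) and 0.000307 in iMSN-D2RKO cocaine (ZT3), against 7.21%, 6.98%, 1.97% and 2.71% of all genes. Tie1 was called beside it in iMSN-D2RKO saline (exact corrected p = 0.0014, peak at ZT5). Both ways of treating the score thus changed which member was called. The score was computed from these same libraries, with Cldn5 among its genes, and was removed gene by gene. The exact null distribution need not hold for values treated in this way. The 4 calls of Cldn5 share the score, and the series of a genotype share their ZT3 libraries, so these calls are not independent. Calls with the score removed, above and below, are a description and no separate support for a rhythm.

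A call in one series and not in another is no difference between them, and the difference of rhythm was tested on its own. With a cosine and a sine of 24 h by treatment or by genotype, limma called no gene at all in WT or iMSN-D2RKO mice between treatments, or under saline or cocaine between genotypes (198, 789, 355 and 695 genes at an unadjusted p under 0.05). The smallest unadjusted p of Cldn5 among these tests was that between cocaine and saline in iMSN-D2RKO mice, 0.00918, with an adjusted p of 0.594.

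Other genes of the vascular lists were called over time in both WT series, counted here over the lists other than the junction genes. A bulk punch does not assign their transcripts to the vessel wall. Some, such as Ctnnb1 with a mean of 169 FPKM, stood well above every member. Such calls were not limited to these lists. Markers of other cells were called too, 11 in WT saline and 14 in WT cocaine. Once the score entered as a covariate, 11 of these 11 markers kept their call in WT saline and 0 of these 14 in WT cocaine. In WT saline, by the limma F test, 3 of 14 adhesion genes (Cd34, Clec14a, Emcn), 1 of 15 VEGF, angiopoietin and BMP genes (Kdr, the main VEGF receptor), 5 of 22 Wnt genes and transcription factors (with Klf4, Reck and Erg), 6 of 22 barrier transporters (with Slc7a5, Mfsd2a and Abcg2), 0 of 5 caveolar genes and 2 of 11 arterial and venous genes (Gkn3, Nr2f2) passed, against 13.1% of all genes. In WT cocaine the counts of these lists, in the same order, were 5 of 14 (with Emcn, Robo4 and Cd248), 5 of 15 (with Nos3, Angpt1 and Bmp6), 6 of 22 (with Apcdd1, Epas1 and Erg), 7 of 23 (with Slc7a5, Slc7a1 and Mfsd2a), 2 of 5 (Plvap, Sdpr) and 3 of 11 (Sema3g, Notch4, Gja4), against 24.2%. Mfsd2a, which carries lipids into the brain and holds down vesicle transport in endothelium, and Slc7a5, which carries large neutral amino acids, were called in both. In iMSN-D2RKO mice no gene of these lists passed under saline, and under cocaine Slc7a5 did, a call that was lost with the replicate number as a block (0.0% of all genes) and when replicate 1, 2 or 3 was left out of every group (0.00724%, 0.00723% and 0.0361%). With the score as a covariate, 11 of the 17 genes called in these lists in WT saline remained called by limma, where 22% of all genes were, and in WT cocaine none of 28 did, where 0.0561% were. Leaving out the set-apart libraries, 4 of these 17 and 9 of these 28 remained. Without replicate 1 or without replicate 2 of every group none did, in fits in which at most 0.0511% of all genes were called, and without replicate 3 it was 7 of 17 (14.2% of all genes) and 19 of 28 (20.4%).

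JTK_CYCLE called Lsr in WT saline (exact corrected p = 0.00223, peak at ZT21) and in iMSN-D2RKO cocaine (0.000486, peak at ZT21), against 9.58% and 1.09% of all genes. Cd93, Kdr and Reck were called in the same 2 series, and Acvrl1 and Gja4 in WT cocaine and iMSN-D2RKO saline, against 7.57% and 2.57% of all genes. Reck and Cd93 were also called in both of their series with the score removed and without the set-apart libraries. The peak of Cd93 in WT saline lay at ZT1 as deposited, at ZT3 with the score removed and at ZT14 without those libraries. Lsr was called in WT saline alone in both settings, Kdr in iMSN-D2RKO cocaine alone with the score removed and in no series without those libraries, and Acvrl1 and Gja4 in no series in either setting. In WT saline the calls by list were Cd93, Cd34 and Mcam (3 of 14 adhesion genes), Kdr (1 of 15), Reck (1 of 22), Slc19a3, Abcc4 and Slc39a10 (3 of 23 transporters) and Gkn3 (1 of 11), and none of the caveolar genes (0 of 5). The organic anion transporter Slco1c1, which carries thyroxine and shares the family of Slco1a4, had a mean of 19.4 FPKM (15.6 to 24.1) and was called in no series.

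Markers of the cells around the endothelium give the frame for these values. Over the 66 libraries the sum of the pericyte markers ran from 72.1 to 135 FPKM (median 92.8) and had a correlation with the score of 0.06, and that of smooth muscle from 18.5 to 57.5 FPKM (median 26.7). The junction list summed to between 89.1 and 194 FPKM (most abundant gene Cldn12) and its sum had a correlation with the score of 0.90, while the adhesion list summed to between 71.4 and 153 FPKM (Egfl7) with a correlation of -0.77. Sums were 230 to 390 FPKM for VEGF, angiopoietin and BMP signalling (Vegfb, correlation with the score of -0.60), 229 to 369 FPKM for the Wnt genes and transcription factors (Ctnnb1, 0.76), 293 to 403 FPKM for the barrier transporters (Slc2a1, the glucose transporter, 0.68), 18.1 to 48.9 FPKM for caveolae and leakiness (Cav2, 0.57) and 65.4 to 92.2 FPKM for arterial and venous genes (Hey1, -0.05). Astrocyte markers summed to between 642 and 997 FPKM (Aldoc), oligodendrocyte markers to between 1992 and 6048 FPKM (Mbp) and neuron markers to between 1075 and 1976 FPKM (Snap25). No gene of any list was at 0 in every library. In these bulk punches the members' 108 to 252 FPKM are thus a small part of the signal, and the vessel lists, like the members, differed in the sign of their correlation with the score.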

How the data were processed

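The authors prepared poly(A) RNA libraries from ventral striatum punches, aligned reads to mm10 (TopHat and Bowtie, with base calls from CASAVA 1.8.2) and deposited gene-level FPKM values made with Cuffnorm. Read counts and depth are not given, and the low values gave no single step per read, so relative depth could be estimated only roughly (0.554 to 1.71 of the median). The 72 columns hold 66 libraries, because the 6 ZT3 libraries are listed in both treatment series with identical values. FPKM totals per library were 364078 to 690048. Genes that reached 1 FPKM in any library of a comparison entered limma 3.58.1 (R 4.3.3) on log2(FPKM + 1) with an empirical Bayes trend and Benjamini-Hochberg adjustment over all genes at 0.05, and fold changes are on that scale, which understates changes of low genes. JTK_CYCLE rules (version 3.1) were run in Python 3.11.15 on FPKM after Dixon's test (95% level), with Bonferroni correction over 11 pairs of period and phase. Genes other than the members were named by rule: the most abundant gene of a list, the up to 3 called genes with the smallest p in a list and comparison, paralogs, and the 10 genes nearest to the members' mean. Members and lists were chosen with earlier results of these data known. The library score was computed from the data, uses 7 of the members, and served as a covariate or was removed gene by gene. On simulated data with changes of 1 on the log2 scale limma recovered 195 of 200 changed genes in the WT cocaine comparison, 133 of 200 in the iMSN-D2RKO ZT7 contrast and 99 of 200 in the WT saline time course, and JTK_CYCLE 198 of 200 rhythms of amplitude 1 in WT saline, with 97 other genes called. The simulated noise was independent between genes and lacked the axis that held 43.6% of the variance within groups. In the simulated limma time course the change was at ZT11 alone. These figures check the code and do not give the recovery or false calls in the deposited libraries. Some results on single genes of the lists are not reported here.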

Additional observations from a re-analysis of the deposited data

Results flagged for a closer look

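Slco1a4, the organic anion transporter, differed between the genotypes in opposite directions at ZT7. In the 3 saline libraries it stood at 12.3, 10.9 and 12.6 FPKM in iMSN-D2RKO mice, below the 13.9, 13.02 and 12.99 FPKM of WT mice, and in the 3 cocaine libraries at 14.03, 18.1 and 14.3 FPKM, above the 11.4, 11.98 and 13.6 FPKM of WT mice. The log2 difference of the cocaine effect between the genotypes was 0.45 (SE 0.255, 95% interval -0.07 to 0.96), with an unadjusted p of 0.0867 and a limma adjusted p of 0.658, so the opposite directions did not pass the test of the difference. The iMSN-D2RKO cocaine library with 18.1 FPKM is 1 of the 13 set apart on the library score, and without these libraries the difference was 0.34 (adjusted p = 0.621).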

How the results depend on the processing

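The counts of called members of the level, interaction and rhythm-difference tests stayed at 0 in every alternative run. Over single time points, cocaine against saline gave 0 calls, 1 with the score as a covariate and 0 to 1 when a replicate was left out. iMSN-D2RKO against WT gave 3, 0 with no filter on low values, 4 with the score as a covariate (Cldn5 at ZT3 and in saline at ZT7, Itm2a and Tie1 in cocaine at ZT15, where 16.4% of all genes passed) and 0 to 5 when a replicate was left out, 5 of them without iMSN-D2RKO ZT7 saline replicate 1. The time course gave 4, and 0 to 6 when a replicate was left out. JTK_CYCLE gave 5, 9 at a corrected p under 0.05, 2 without Dixon's test, 0 to 5 when a replicate was left out, 2 without ZT3, 1 without ZT7, 2 without ZT11 and 1 without ZT19. The negative pairs of opposite side were 21, 7 without the set-apart libraries, 4 with the score removed, and 20 to 21 when a replicate was left out. Fits without iMSN-D2RKO ZT7 saline replicate 1 or WT ZT15 cocaine replicate 3, and the contrasts of the cocaine effect at single time points, were chosen after seeing the data. The causes of these changes were not tested.

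Replicate numbers did not pair the libraries: of 60 same-numbered pairs, 18 had deviations correlated above 0.1 (median r -0.05). With the replicate block the time course gave 6 calls (Slco1a4 added in both WT series, where 22% and 23.5% of all genes passed), genotype at single time points 3 and all other tests 0. With 3 libraries a group and no read counts, no counting error can be given for the low members (Tek, Tie1 and Cdh5).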
